A study of Mus musculus with 6 samples.

Results

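Txn1 and Fth1, the genes of thioredoxin 1 and of the ferritin heavy chain, are described here in horizontal basal cells of the mouse olfactory epithelium, 18 h after the epithelium was stripped by methyl bromide gas. They were taken by name as 2 of the 8078 genes listed in the study's table of gene levels. They were picked with their levels in the injured and uninjured libraries already known, so those levels are given as a description and carry no test. All mice were 12 weeks old and of the strain given as B6;KRT5-CreER;Ai9 fl(Stop)TdTomato, where the keratin 5 promoter drives a Cre that tamoxifen activates, and Cre turns on the red protein TdTomato. Tamoxifen was given 2 weeks before the cells were sorted on that colour, and cells that descend from a labelled cell keep it. The 3 injured libraries came from mice that breathed methyl bromide at 180 ppm for 8 h and were sampled 18 h later, and the 3 uninjured libraries came from mice without that exposure. Each library pooled cells of several animals, so the library is the replicate.

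Thioredoxin 1 is a small cytosolic protein that reduces disulfide bonds in other proteins. It is itself reduced by thioredoxin reductase at the cost of NADPH, and Txnip binds and inhibits it. The ferritin heavy chain forms, with the ferritin light chain, a hollow shell in which iron is stored, and it oxidises ferrous iron so that the metal can be laid down there. Free ferrous iron turns peroxide into reactive radicals, so ferritin and the thioredoxin system both bear on oxidative damage. Horizontal basal cells rest on the basement membrane of this epithelium as a quiescent stem cell reserve, and they start to divide and differentiate when the tissue above them is lost. Methyl bromide can methylate thiols such as that of glutathione.

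The sequences at the start of both genes are shown because they hold common promoter letters and, for ferritin, the element that controls translation. In the mouse build GRCm38, which is not the build named for the study's own alignment, Txn1 lies at chr4:57943373-57956411 on the minus strand, with 5 exons and 105 encoded residues. Fth1 lies at chr19:9980598-9985098 on the plus strand, and its transcript from the downstream start has 4 exons and encodes 182 residues. Each promoter window below, from RefSeq on GRCm38.p6, covers 300 bases around the annotated start, at chr4:57956362-57956661 for Txn1 and chr19:9982396-9982695 for Fth1. Capitals mark matches to the GC box (GGGCGG), the CCAAT box (CCAAT) and the TATA core (TATAA), on either strand.
Txn1 promoter: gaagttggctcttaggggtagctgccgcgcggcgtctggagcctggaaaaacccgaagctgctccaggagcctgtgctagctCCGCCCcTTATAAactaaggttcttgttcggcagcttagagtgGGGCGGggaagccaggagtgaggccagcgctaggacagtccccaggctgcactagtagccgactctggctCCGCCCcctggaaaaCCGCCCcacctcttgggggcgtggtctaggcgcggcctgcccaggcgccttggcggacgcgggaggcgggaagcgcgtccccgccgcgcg
Fth1 promoter: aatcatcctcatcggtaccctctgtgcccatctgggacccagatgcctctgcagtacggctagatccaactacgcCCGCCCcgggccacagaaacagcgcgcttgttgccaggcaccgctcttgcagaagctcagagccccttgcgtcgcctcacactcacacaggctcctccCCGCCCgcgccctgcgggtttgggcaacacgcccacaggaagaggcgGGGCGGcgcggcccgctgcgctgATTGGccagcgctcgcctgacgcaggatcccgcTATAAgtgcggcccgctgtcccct
The GC box, which the factor Sp1 can bind, was found 4 times in the Txn1 window and 3 times in the Fth1 window, and 35.6% of 32817 mouse promoter windows of 300 bases hold at least 1. The CCAAT box was found once, in Fth1 only, and is in 37.4% of the windows. The TATA core was matched in both, overlapping itself on opposite strands in Txn1, and is in 24.9% of the windows. Counted from the transcript start, the Txn1 matches begin at -161 and -160, and the Fth1 match begins at 27, downstream of that start. The antioxidant response element (TGACNNNGC), read by the oxidative stress factor NRF2, and the AP-1 site (TGACTCA) had no match in either window, and are in 12.4% and 5.20% of all windows. These letters were searched for in these windows only.

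Ferritin mRNAs carry an iron-responsive element near their start, a hairpin that iron regulatory proteins hold when iron is scarce, which stops translation. In Fth1 it lies in the 5′ untranslated region at bases 86 to 115 of the mRNA (chr19:9982731-9982760, plus strand), and in Ftl1, the ferritin light chain, at bases 77 to 106 (chr7:45459779-45459808, minus strand). The capitals mark the loop, and both sequences are from the GENCODE M21 transcripts on GRCm38.
Fth1 iron-responsive element: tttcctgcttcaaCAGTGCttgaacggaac
Ftl1 iron-responsive element: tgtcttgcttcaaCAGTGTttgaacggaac
The core searched for on the mRNA strand, a C, any 5 bases and the loop CAGTGN, stands in the first 150 bases of 5.99% of 58695 mouse coding transcripts, and Txn1 had no match there. RNA levels such as those below do not show how much of an mRNA is translated.

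The deposited levels are taken to be FPKM, fragments mapped to a gene scaled by its transcript length and by the mapped total of the library, and the read depth behind them is unknown. Differences are taken as injured minus uninjured after adding 1 FPKM and taking log2, and for weakly expressed genes this scale shrinks them. Summed FPKM per library ran from 164265 to 231755. Only 1 of 7987 genes tested, 0.0125%, passed limma's adjusted p of 0.05, and that was Xist, the RNA of the inactive X chromosome, at 0.0645 to 0.561 FPKM in injured libraries and 27.0 to 33.8 in uninjured ones. The 4 Y-linked genes analysed summed to 42.6 to 52.8 FPKM in injured and 5.04 to 32.5 in uninjured libraries. The sex of the pooled animals was not given, so injury and sex cannot be told apart. Injured replicate 2 stood apart from the other injured libraries: its correlations across genes with them were 0.734 and 0.754, against 0.849 between injured replicates 1 and 3 and 0.885 to 0.905 among uninjured libraries. Without it, 365 genes passed, 4.57% of those tested, with 3.43% higher and 1.14% lower. As it was singled out on these same values, the p-values without it, here and below, are a description and not an independent test.

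Txn1 stood at 285, 118 and 516 FPKM across injured replicates 1, 2 and 3, and at 98.1, 74.4 and 76.7 FPKM in uninjured replicates 1, 2 and 3. Every injured library was above every uninjured one, but the gap was narrow for injured replicate 2, which was 1.42 times the uninjured mean, while injured replicates 1 and 3 were 3.43 and 6.21 times that mean. The means were 306 ± 200 FPKM in injured and 83.1 ± 13.1 FPKM in uninjured libraries (SD, n = 3 each), a ratio of 3.68 and a difference of 1.64 on the log2(FPKM + 1) scale. Without injured replicate 2 the difference was 2.20. Among all genes tested it was the 101st from the top of the order, with 98.7% of genes below it, and this placing is part of what the gene was chosen on. Of all genes tested, 12.0% had every injured library above every uninjured one, and 3.46% had the Txn1 order, with injured replicate 3 above 1 above 2 above all uninjured libraries.

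**Figure D1:**
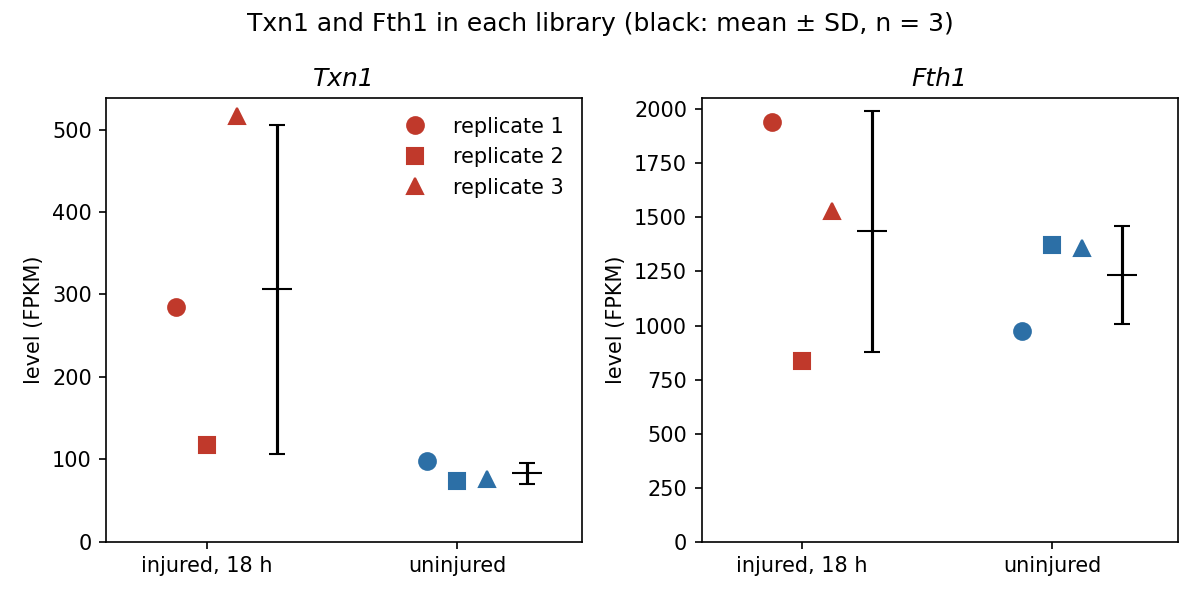
Level of Txn1 and of Fth1 in FPKM in each library, injured to the left of uninjured, with the mean ± SD of 3 libraries in black. All 3 Txn1 values of injured libraries (118 to 516 FPKM) lie above the uninjured ones (74.4 to 98.1), whereas the Fth1 values of the groups overlap.

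Fth1 was among the most abundant RNAs of these cells in both conditions. It stood at 1942, 837 and 1527 FPKM across injured replicates 1, 2 and 3, and at 973, 1371 and 1359 FPKM in uninjured replicates 1, 2 and 3. The groups overlapped: injured replicates 1 and 3 were above all uninjured libraries, and injured replicate 2 was the lowest of the 6. The means were 1435 ± 558 FPKM in injured and 1234 ± 227 FPKM in uninjured libraries (SD, n = 3 each), a ratio of 1.16 and a log2 difference of 0.15, close to the median of 0.16 over all genes tested. The difference was 0.50 without injured replicate 2, and it was -0.04, -0.13 and -0.01 after upper-quartile scaling, quantile normalization and rescaling without Mir703, an entry that took 8.01% to 25.4% of the summed FPKM. No direction is therefore given for Fth1. Under the same 3 scalings Txn1 differed by 1.45, 1.45 and 1.48, and its injured libraries stayed above its uninjured ones.

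By rank within a library, Fth1 was between the 6th and the 11th most abundant of 8078 genes in injured libraries, and between the 5th and the 8th in uninjured ones. Its share of the summed FPKM was 0.951%, 0.510% and 0.659% in injured replicates 1 to 3, and 0.516%, 0.659% and 0.630% in uninjured replicates 1 to 3. Txn1 ranked 66th, 135th and 29th in injured replicates 1 to 3, against 169th, 316th and 307th in uninjured replicates 1 to 3. Its share of the summed FPKM was 0.139%, 0.0717% and 0.223% in injured libraries, against 0.0521%, 0.0358% and 0.0356% in uninjured ones. Coefficients of variation among uninjured libraries were 15.7% for Txn1 and 18.4% for Fth1, and both genes spread more among injured ones, at 65.3% and 38.9%. The SD of Txn1 on the log2 scale was 1.07 in injured libraries, above that of 89.3% of genes tested, and 0.22 in uninjured libraries, above that of 41.1%. For Fth1 it was 0.62 in injured libraries, above that of 68.3%, and 0.28 in uninjured libraries, above that of 55.9%.

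Cell type markers also set injured replicate 2 apart. The list of globose basal and immature neuronal genes, of which 9 of 10 were in the table, summed to 49.9, 540 and 37.7 FPKM in injured replicates 1 to 3, against 53.4 to 80.3 in uninjured libraries. Among them Gap43, a growth cone protein, was at 113 FPKM in injured replicate 2 and at 2.44 to 13.1 in the other 5 libraries. The 7 of 10 horizontal basal cell markers analysed summed to 312, 199 and 407 FPKM in injured replicates 1 to 3, against 327 to 353 in uninjured libraries. Of the 7, 4 had positive log2 differences (Cav1 1.44, Itga6 0.79, Itgb4 0.34 and Icam1 0.32) and 3 negative ones (Trp63 -0.61, Col17a1 -0.62 and Egfr -0.02), with a median of 0.32. Krt5 was not analysed here, and Krt14 shares an entry with other keratins. Injured replicate 2 thus had the lowest Txn1 and Fth1 of the injured libraries together with the highest neuronal precursor and the lowest basal cell marker levels. The low place is not particular to Txn1 and Fth1, as it was the lowest injured library for 46.2% of all genes tested. Its summed FPKM, 164265, was also the lowest of all libraries. The part of cell makeup in the Txn1 and Fth1 values was not tested. In pooled, sorted RNA, fewer cells of a type and less RNA per cell cannot be told apart.

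Markers of other cells were present in both groups. Mature olfactory neuron markers, 8 of 10 in the table, summed to 127 to 366 FPKM in injured libraries and to 438 to 752 in uninjured ones. Sustentacular markers (6 of 10) summed to 262 to 691 FPKM in injured and 368 to 418 in uninjured libraries. The most abundant of them in every library was the keratin Krt18, at 119 to 558 FPKM in injured and 133 to 173 in uninjured libraries, while the other 5 genes had negative log2 differences and the list median was -0.53. Gland and secretory markers (3 of 10) summed to 1215 to 2427 FPKM in injured and 3083 to 5013 in uninjured libraries, nearly all of it Plunc, and the list median was -0.03. Fibroblast markers (4 of 10) summed to 39.2 to 105 FPKM in injured and 129 to 225 in uninjured libraries. That gap was carried by Dcn, the gene of decorin, at 15.3 to 62.5 against 116 to 162 FPKM, whereas Col1a1, Col1a2 and Fn1 had positive differences and the list median was 0.36. Respiratory ciliated cell markers (7 of 10) summed to 38.8 to 65.1 FPKM in injured and 56.3 to 110.1 in uninjured libraries, and Dnali1 among them was listed at the table minimum of 0.001 in injured replicates 2 and 3. For blood cells, 3 neutrophil genes summed to 24.1 to 101 FPKM in injured and 13.3 to 38.7 in uninjured libraries, and Ctss, the only macrophage marker analysed, was at 1.97 to 5.20 against 3.15 to 4.71. The erythroid genes, with 2 entries, summed to 6.39 to 37.7 against 4.49 to 21.4 FPKM, and none of the 10 endothelial markers was analysed here.

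**Figure D2:**
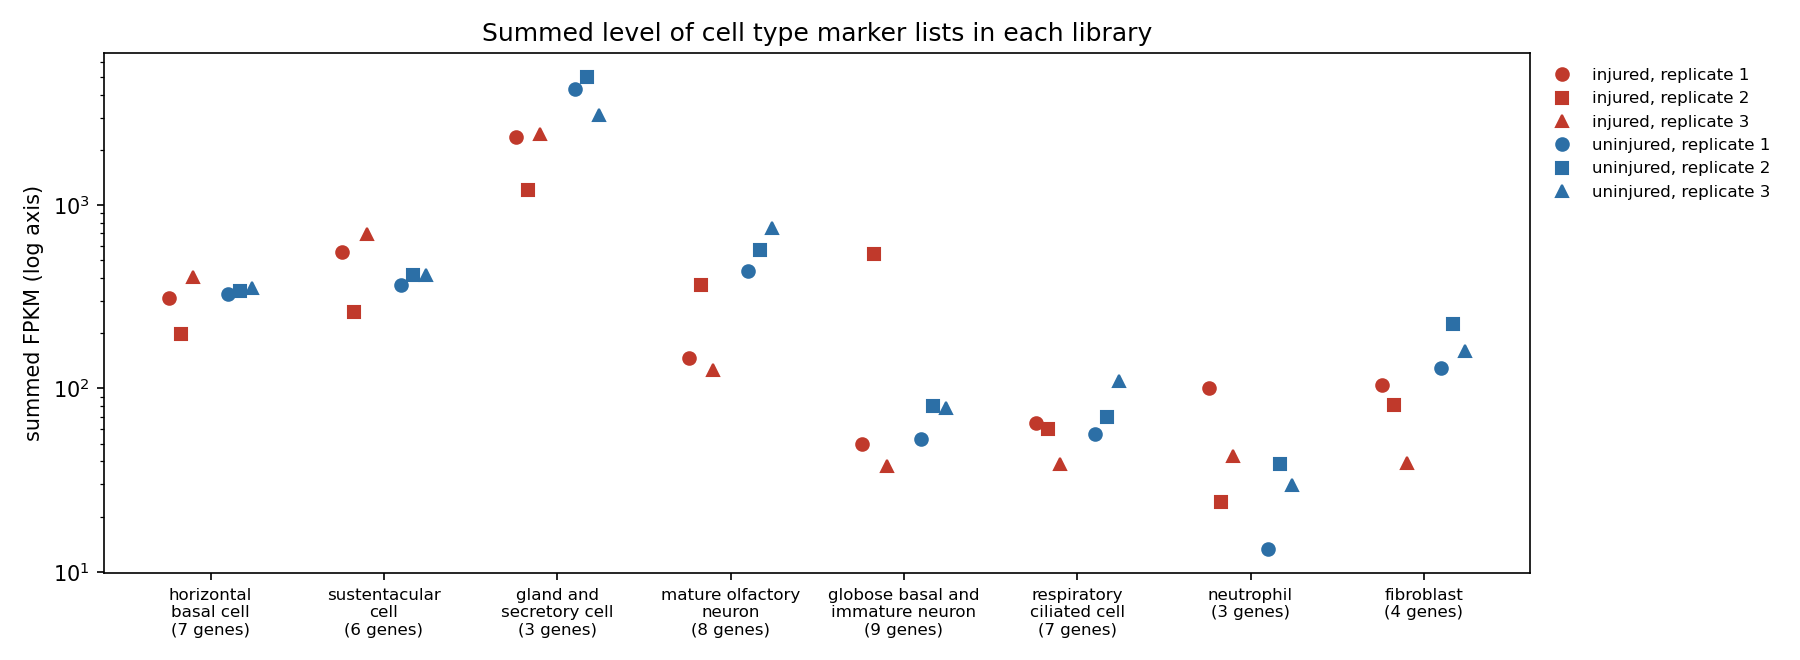
Summed FPKM of cell type marker lists in each library on a log axis, injured to the left of uninjured, for the 8 lists with at least 3 genes in the table. Injured replicate 2 (red square) stands at 540 FPKM for globose basal and immature neuron markers, where the other 5 libraries are between 37.7 and 80.3.

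The nearest partner of Txn1 in the table was its inhibitor Txnip, which also takes part in the control of glucose uptake. Txnip was at 53.4, 68.9 and 42.6 FPKM across injured replicates 1, 2 and 3, and at 137, 110 and 127 FPKM in uninjured replicates 1, 2 and 3. Every injured library was below every uninjured one, where 6.75% of all genes tested showed that order. Its log2 difference was -1.19 with a limma adjusted p of 0.200. Without injured replicate 2, the library singled out on these same data, it was -1.36 with a limma adjusted p of 0.0357. Injured replicate 2, which was nearest to the uninjured libraries for Txn1, was also nearest to them for Txnip.

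Set against each other within a library, where any scaling between libraries drops out, Txn1 was 5.33, 1.71 and 12.1 times Txnip in injured replicates 1 to 3, and 0.714, 0.679 and 0.604 times Txnip in uninjured replicates 1 to 3. Inhibitor RNA was thus the more abundant in all 3 uninjured libraries and thioredoxin RNA in all 3 injured ones. Txn2, the mitochondrial thioredoxin, was at 46.5, 26.8 and 48.5 FPKM in injured libraries and at 23.9, 25.8 and 32.5 FPKM in uninjured ones, with overlapping groups and a limma adjusted p of 0.547. The ratio of Txn1 to Txn2 was 6.12, 4.39 and 10.6 in injured and 4.10, 2.88 and 2.36 in uninjured replicates 1 to 3. As Txn1 was chosen on its own levels, these ratios are a description.

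**Figure D3:**
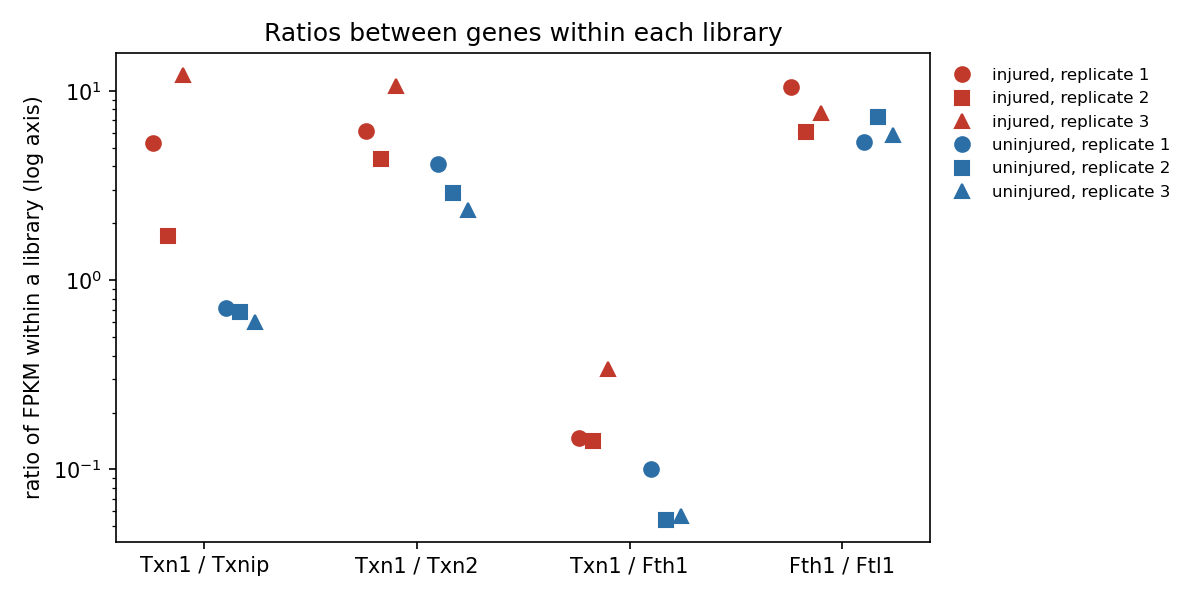
Ratio of the FPKM of 2 genes within each library, on a log axis, injured to the left of uninjured. Txn1 over Txnip is 1.71 to 12.1 in injured and 0.604 to 0.714 in uninjured libraries, while Fth1 over Ftl1 overlaps between the groups (6.09 to 10.5 and 5.37 to 7.25). Ftl1 may share reads with its near copy Ftl2, which is left out of the ratio.

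The list of the thioredoxin and peroxiredoxin system, with its glutaredoxins and methionine sulfoxide reductases, had 27 of 38 genes in the table. With limma over all 6 libraries 0 of the 26 genes besides Txn1 passed in either direction. At an unadjusted p under 0.05 there were 4, Srxn1, Glrx and Txnl4a with positive differences and Txnip with a negative one. Of all genes tested, 7.15% were higher and 4.04% lower at that p. The median log2 difference was 0.02, against 0.16 for all genes tested. Without injured replicate 2, 2 of the 26 were higher and 1, Txnip, was lower, where 3.43% and 1.14% of all genes tested passed. The median was then 0.25 against 0.17 for all genes. The higher ones were Glrx, a glutaredoxin that removes glutathione from protein thiols (log2 difference 2.38, limma adjusted p = 0.00637), and Srxn1, sulfiredoxin, which restores overoxidised peroxiredoxins (2.37, limma adjusted p = 0.0129). Glrx had 20.7, 3.72 and 22.9 FPKM in injured replicates 1 to 3, against 2.77, 3.81 and 3.60 in uninjured replicates 1 to 3. Srxn1 was at 11.1, 2.20 and 16.1 FPKM in injured and at 1.51, 2.29 and 1.61 in uninjured replicates 1 to 3. For both, injured replicate 2 lay within the range of the uninjured libraries, and over all 6 libraries the limma adjusted p was 0.380 for Glrx and 0.369 for Srxn1.

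Peroxiredoxins are the peroxidases that thioredoxin recharges. Prdx6, which uses glutathione rather than thioredoxin, was the most abundant gene of the list in 5 of the 6 libraries. It was at 376, 307 and 219 FPKM across injured replicates 1, 2 and 3, and at 376, 426 and 503 FPKM in uninjured replicates 1, 2 and 3. Each injured library was below every uninjured one, though replicates 1 of both groups were nearly equal (limma adjusted p = 0.574). In injured replicate 3 Txn1 was above Prdx6. Prdx2, a cytosolic peroxiredoxin, was at 67.8, 47.6 and 45.9 FPKM in injured and 32.4, 50.7 and 53.1 FPKM in uninjured replicates 1 to 3, and the groups overlapped. Txn1 made up 24.5%, 15.2% and 41.2% of the summed FPKM of the list in injured replicates 1 to 3, against 10.8%, 8.00% and 7.09% in uninjured replicates 1 to 3. Txnrd1, which encodes the cytosolic thioredoxin reductase, and Prdx1 were not analysed here.

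A shorter list was set up for proteins that take electrons from thioredoxin or are held by it, with 8 of 10 genes in the table. Not every gene on it, Papss1 for one, encodes a direct client of this kind. By limma 0 passed over the 6 libraries and 2, Apex1 and Rrm1, had an unadjusted p under 0.05, both with positive differences. The median log2 difference was 0.27 against 0.16 for all genes tested. Without injured replicate 2, 2 passed as higher, and the median was 0.54 against 0.17 for all genes. The shares of all genes tested were 7.15% higher and 4.04% lower at the unadjusted p. Without injured replicate 2 they were 3.43% and 1.14%. These shares stand beside the counts of the lists below as well. Apex1, a DNA repair endonuclease that thioredoxin keeps reduced, was at 33.4, 21.7 and 42.6 FPKM in injured and at 11.9, 11.7 and 15.4 FPKM in uninjured replicates 1 to 3, without overlap (log2 difference 1.22, limma adjusted p = 0.191, and 1.47 with an adjusted p of 0.0279 without injured replicate 2). Rrm1, the large subunit of ribonucleotide reductase, was at 15.2, 8.94 and 14.04 FPKM in injured and at 4.96, 6.59 and 6.21 FPKM in uninjured replicates 1 to 3 (limma adjusted p = 0.300, and 0.0390 without injured replicate 2). Papss1, which makes activated sulfate, overlapped between the groups at 14.3 to 20.97 and 17.9 to 18.9 FPKM.

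The light chain partner of Fth1 was less abundant than the heavy chain in every library. Ftl1 was at 185, 137 and 199 FPKM across injured replicates 1, 2 and 3, and at 181, 189 and 233 FPKM in uninjured replicates 1, 2 and 3, with overlapping groups (limma adjusted p = 0.816). Its near copy Ftl2, a processed pseudogene in RefSeq, was at 162, 98.6 and 208 FPKM in injured and at 122, 117 and 162 FPKM in uninjured replicates 1 to 3, and how reads shared by the 2 were split was not given in the sources used here. Fth1 was 10.5, 6.09 and 7.66 times Ftl1 in injured and 5.37, 7.25 and 5.83 times Ftl1 in uninjured replicates 1 to 3, ranges that overlap. These ratios leave Ftl2 out, and they would be lower if light chain reads were assigned to it. RefSeq also lists Fth-ps2, Fth-ps3, Ftl1-ps1, Ftl1-ps2 and Txn-ps1, copies that are not analysed here. They could share reads with Fth1, Ftl1 and Txn1, so the levels of all 3 carry that uncertainty.

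Of the iron storage and transport list 18 of 28 genes were in the table, and 0 of the 17 besides Fth1 passed by limma over the 6 libraries or without injured replicate 2, and 1, Pcbp1, had an unadjusted p under 0.05 over the 6. The median log2 difference was 0.01, against 0.16 for all genes tested. Fth1 alone made up 61.9% to 71.2% of the list's summed FPKM in injured and 61.0% to 71.1% in uninjured libraries. Tfrc, the transferrin receptor that brings iron into the cell, was at 23.2, 14.01 and 36.9 FPKM in injured and at 25.3, 15.0 and 17.5 FPKM in uninjured replicates 1 to 3 (limma adjusted p = 0.793). Among the proteins that sense iron, Ireb2, an iron regulatory protein, was at 7.58, 21.4 and 10.7 FPKM in injured and at 9.92, 9.31 and 7.69 in uninjured replicates 1 to 3. Aco1, the aconitase that becomes an iron regulatory protein when it loses its iron-sulfur cluster, was at 3.59 to 6.36 FPKM in injured and 3.91 to 5.69 in uninjured libraries. All 3 overlapped between the groups.

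Ferritin is filled by iron chaperones and emptied by a selective autophagy receptor. The chaperone Pcbp1 was at 45.5, 26.4 and 36.3 FPKM in injured and at 12.1, 24.5 and 21.7 FPKM in uninjured replicates 1 to 3 (log2 difference 0.88, limma adjusted p = 0.380). It was the only gene of this list with every injured library above every uninjured one, an order that 12.0% of all genes tested showed. Its relative Pcbp2 overlapped, at 99.4 to 123 FPKM in injured and 81.9 to 183 in uninjured libraries. Ncoa4, the receptor that takes ferritin to the lysosome, was at 12.1, 6.69 and 12.7 FPKM in injured and at 14.2, 9.20 and 7.78 in uninjured replicates 1 to 3. Heph, a ferroxidase of iron export, and Hfe, which acts in iron sensing, were lower in each injured library than in any uninjured one, at 2.53 to 3.59 against 4.34 to 5.96 FPKM and at 0.448 to 1.59 against 2.05 to 3.77 FPKM, with limma adjusted p of 0.492 and 0.547. That order was shown by 6.75% of all genes tested. The iron exporter Slc40a1 was not analysed here.

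**Figure D4:**
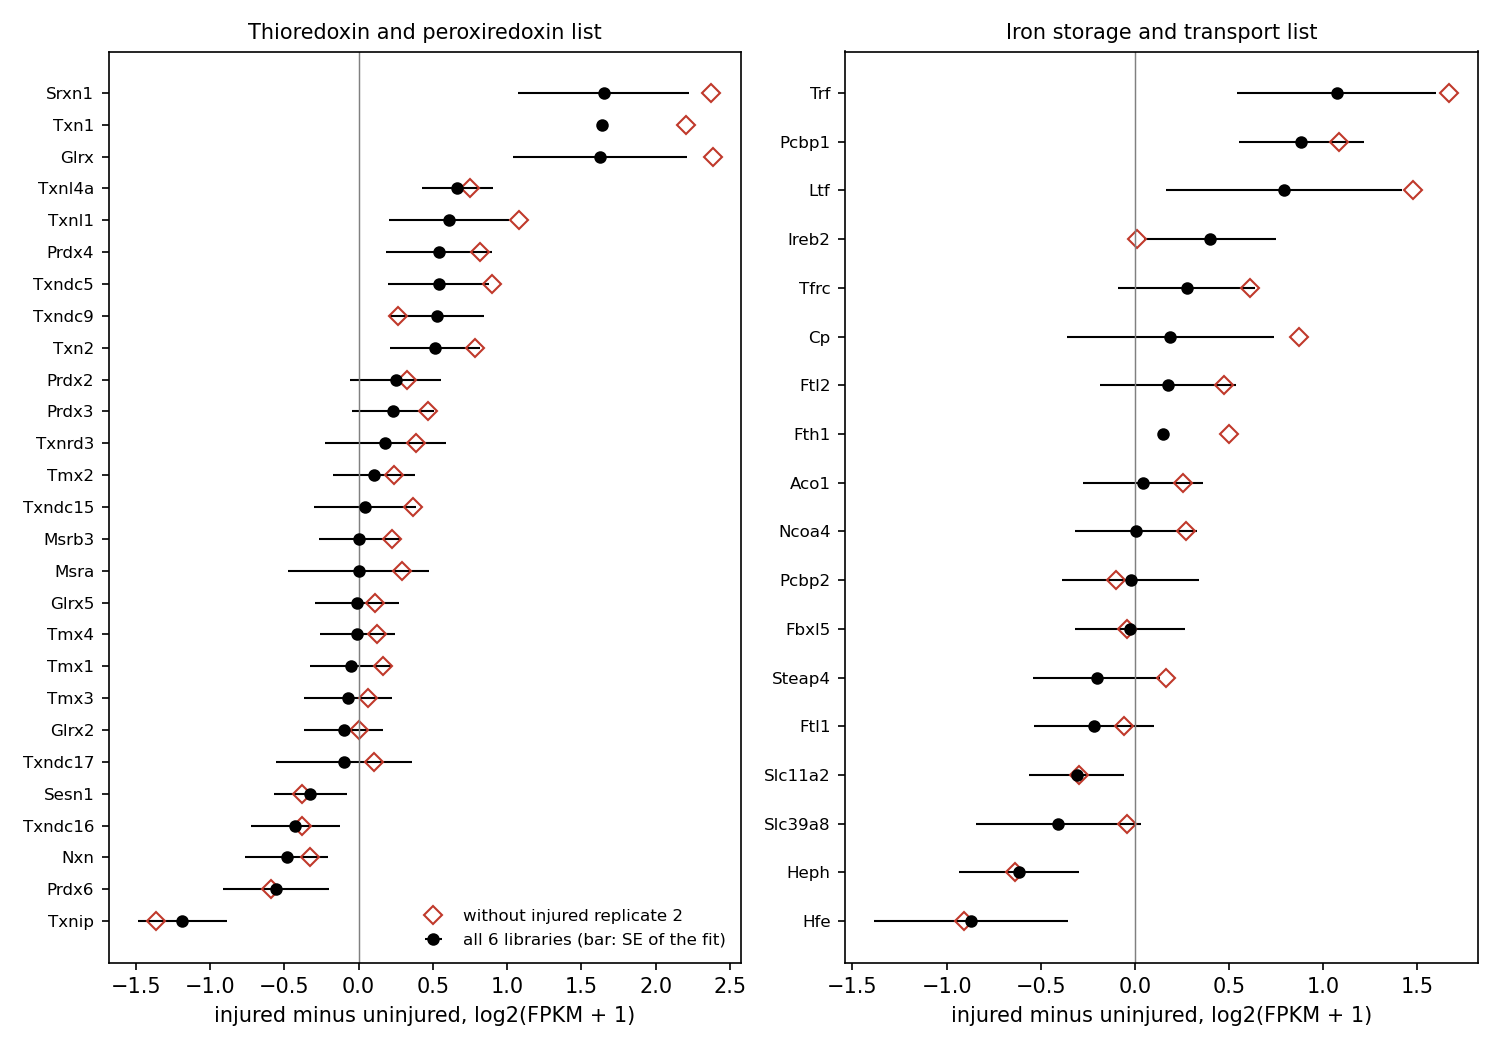
Difference between injured and uninjured libraries on the log2(FPKM + 1) scale for each gene of the thioredoxin and peroxiredoxin list (left) and of the iron storage and transport list (right), over 6 libraries (black, with the SE of the limma fit, drawn for all genes but the chosen Txn1 and Fth1) and without injured replicate 2 (open diamonds). Txn1 lies between Srxn1 and Glrx near the top at 1.64, Txnip is lowest at -1.19, and Fth1 is at 0.15.

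The heme and iron-sulfur list had 0 of 21 tested genes past limma's threshold over the 6 libraries. At an unadjusted p under 0.05 there were 2, Hmox2 and Alas1, both with positive differences. The list's median log2 difference was 0.03, against 0.16 for all genes tested, and 1 gene was higher without injured replicate 2. That gene was Hmox1, heme oxygenase, which frees iron from heme. It was at 18.5, 7.10 and 20.97 FPKM in injured and at 8.62, 6.46 and 7.75 in uninjured replicates 1 to 3 (limma adjusted p = 0.458, and 0.0338 without injured replicate 2). Alas1, which starts heme synthesis, was at 61.0, 79.7 and 96.6 FPKM in injured and at 32.2, 41.8 and 41.7 FPKM in uninjured replicates 1 to 3, without overlap and with injured replicate 2 well above the uninjured libraries (log2 difference 1.00, limma adjusted p = 0.288). Blvrb, a biliverdin reductase, was at 35.1 to 83.0 FPKM in injured and 31.0 to 44.1 in uninjured libraries. Pgrmc1, a heme-binding membrane protein, was at 71.1 to 108 against 97.3 to 122 FPKM.

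Glutathione is the other main thiol buffer of the cell. Of 14 genes tested for its synthesis and its peroxidases 0 passed by limma over the 6 libraries. An unadjusted p under 0.05 was found for 3, Gpx2 and Gpx3 with positive differences and Gpx6 with a negative one. The median log2 difference was 0.39, against 0.16 for all genes tested. Without injured replicate 2 Gsr, glutathione reductase, and Gpx2, an epithelial glutathione peroxidase, were higher (limma adjusted p = 0.0336 and 0.0435). Gpx2 was at 114, 22.4 and 44.4 FPKM in injured and at 16.2, 18.8 and 17.3 FPKM in uninjured replicates 1 to 3, and Gsr at 49.3, 12.1 and 51.6 against 15.1, 16.8 and 23.0. Gpx6, a peroxidase of the olfactory tissue, had the highest mean of the list. It was at 360, 103 and 78.9 FPKM in injured and 375, 1046 and 996 FPKM in uninjured replicates 1 to 3. Each injured library was below each uninjured one, though replicates 1 of both groups were close (log2 difference -2.35, limma adjusted p = 0.267). Gpx1 overlapped at 87.9 to 180 against 76.9 to 123 FPKM, as did the amino acid transporter subunit Slc3a2 at 95.9 to 181 against 128 to 162.

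The glutathione transferases, which join glutathione to foreign compounds, had 9 entries, of which 0 passed by limma with all libraries or without injured replicate 2. Over all 6, 1 had an unadjusted p under 0.05, the joined Gstm1 entry given below, with a negative difference. The list had a median log2 difference of -0.11, against 0.16 for all genes tested. The entry that joins Gstm1 with 5 other mu class genes was at 712, 1118 and 664 FPKM in injured and at 1164, 2204 and 1598 FPKM in uninjured replicates 1 to 3 (limma adjusted p = 0.435). No level of a single mu class gene can be read from it. The joined entry of Gsto1 and Gsto2 was at 387, 113 and 264 FPKM in injured and 122, 141 and 151 in uninjured replicates 1 to 3. The microsomal Mgst1 overlapped at 64.1 to 110.1 and 68.2 to 87.2 FPKM.

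NADPH feeds both thioredoxin reductase and glutathione reductase. A list drawn around its supply had 11 tested genes, not all of which make NADPH themselves. By limma 0 passed over the 6 libraries. At an unadjusted p under 0.05 there were 3, Taldo1, Me2 and Mthfd2, all with positive differences. G6pdx, Pgd and Idh1 were not among them. The median log2 difference was 0.20, against 0.16 for all genes tested. Taldo1, a transaldolase of the pentose phosphate pathway, and Me2, a mitochondrial malic enzyme, were higher without injured replicate 2 (limma adjusted p = 0.0251 and 0.0486). Me2 was steady within both groups, at 11.3, 10.8 and 11.5 FPKM in injured and at 5.07, 5.17 and 5.45 FPKM in uninjured replicates 1 to 3 (log2 difference 0.97, limma adjusted p = 0.193 over the 6 libraries). It is among the 10 of 131 list genes, 7.63%, with every injured library above every uninjured one, against 12.0% of all genes tested. G6pdx, the entry enzyme of the pathway, was at 27.6 to 50.4 FPKM in injured and 26.9 to 28.9 in uninjured libraries. Pgd was at 20.3 to 57.0 against 23.1 to 30.0, and the NADP-dependent dehydrogenase Idh1 at 56.2 to 74.5 against 60.7 to 71.2.

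The superoxide, peroxide and metallothionein genes, with 8 entries tested, had 0 past limma's threshold in both fits and 0 at an unadjusted p under 0.05 over the 6 libraries. Their median log2 difference was -0.24, against 0.16 for all genes tested. Sod1, the cytosolic superoxide dismutase, differed widely between uninjured libraries, at 151, 1075 and 1563 FPKM in uninjured replicates 1 to 3, and was at 132, 482 and 121 FPKM in injured replicates 1 to 3. The metallothioneins Mt1 and Mt2 share an entry that was at 695, 339 and 496 FPKM in injured and 266, 458 and 457 FPKM in uninjured replicates 1 to 3, and its values, like those of Fth1, were highest in injured replicate 1 with overlapping groups. Park7 was at 40.1 to 67.1 FPKM in injured and 28.98 to 57.1 in uninjured libraries.

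NRF2 is the factor that switches on Txn1, ferritin and many genes of glutathione metabolism under oxidative or electrophilic stress. Of 23 tested regulators and targets 0 passed by limma over the 6 libraries and 3 had an unadjusted p under 0.05 (Srxn1 with a positive difference, Ephx1 and Phgdh with negative ones). The median log2 difference was 0.12, against 0.16 for all genes tested. Without injured replicate 2 the 2 higher ones were Srxn1 and Hmox1, both counted above. Nfe2l2, which encodes NRF2, was at 125, 65.4 and 120 FPKM in injured and 84.7, 86.7 and 122 FPKM in uninjured replicates 1 to 3. Ephx1, a microsomal epoxide hydrolase, was at 127, 126 and 104 FPKM in injured and at 195, 184 and 220 FPKM in uninjured replicates 1 to 3, below every uninjured library in each injured one (log2 difference -0.74, limma adjusted p = 0.397). Aldh3a1, an aldehyde dehydrogenase, was at 60.1 to 95.8 against 93.7 to 129 FPKM.

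Over all 9 lists, 131 genes besides Txn1 and Fth1 were tested and 0 passed by limma with 6 libraries, the lowest adjusted p being 0.191 for Apex1. At an unadjusted p of 0.05, 13 genes were higher (9.92%) and 5 lower (3.82%), against 7.15% and 4.04% of all genes tested. Without injured replicate 2 there were 9 higher genes (6.87%) and 1 lower (0.763%), against 3.43% and 1.14% of all genes. In 7.63% of the list genes every injured library was above every uninjured one and in 6.11% below, against 12.0% and 6.75% of all genes tested.

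The genes whose levels followed Txn1 most closely over the 6 libraries were found by the root mean square difference between log2(FPKM + 1) values, each gene centred on its own mean, among 3469 other genes averaging 10 FPKM or more. They were Actn1, a crosslinker of actin filaments (0.20), F2rl1, a protease-activated receptor (0.23), Uchl3, a ubiquitin hydrolase (0.23), Isyna1, an inositol phosphate synthase (0.24), and Mapk6, an atypical MAP kinase (0.25), where the median gene differed by 0.98. Actn1 was at 42.7, 13.4 and 63.2 FPKM in injured and at 11.0, 11.2 and 12.1 FPKM in uninjured replicates 1 to 3. F2rl1 was at 69.9, 20.4 and 91.2 FPKM in injured and at 17.3, 16.2 and 19.3 in uninjured replicates 1 to 3. Like Txn1, both were highest in injured replicate 3 and nearest to the uninjured libraries in injured replicate 2. The search picked them on these same values, so that likeness is part of the choice and not a separate result.

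The nearest genes to Fth1 were Serpinh1, a collagen chaperone (0.10), P4hb, a protein disulfide isomerase (0.10), Ctdsp1, a phosphatase of RNA polymerase II (0.11), Nf2, the gene of merlin (0.11), and Lims1, a focal adhesion adaptor (0.11), against a median of 0.46. P4hb was at 128, 58.6 and 108 FPKM in injured and at 57.8, 97.4 and 84.3 FPKM in uninjured replicates 1 to 3. Txn1 and Fth1 differed from each other by 0.90, which put Fth1 at place 1233 in the order from Txn1 and Txn1 at place 3188 in the order from Fth1. Their ratio within a library, Txn1 over Fth1, was 0.147, 0.141 and 0.338 in injured and 0.101, 0.0543 and 0.0565 in uninjured replicates 1 to 3. The pattern of Fth1, with injured replicate 2 lowest of all 6 and injured replicates 1 and 3 above every uninjured library, was shown by 7.49% of genes tested.

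**Figure D5:**
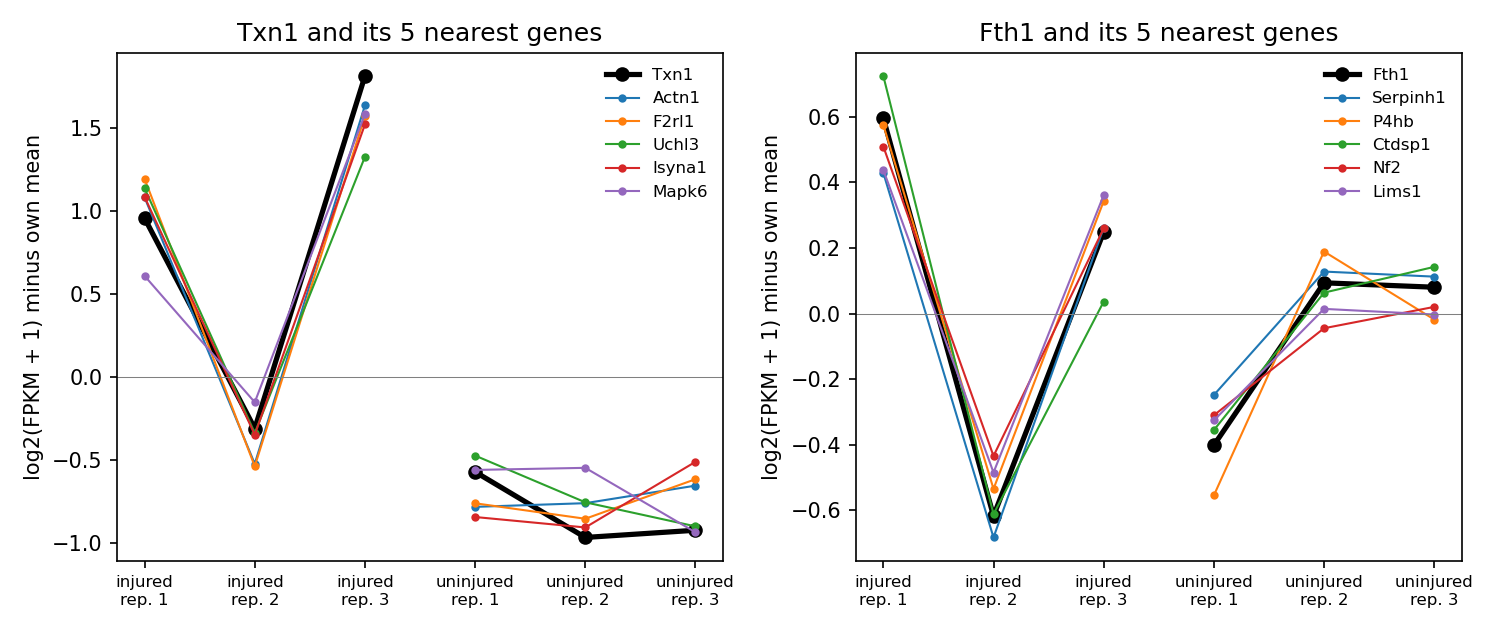
Log2(FPKM + 1) of Txn1 (left) and Fth1 (right) in black, and of the 5 genes nearest to each in colour, centred on each gene's mean, for the injured then the uninjured libraries. Lines join libraries of 1 group only to help follow a gene; Txn1 and its neighbours peak in injured replicate 3, and Fth1 and its neighbours are lowest in injured replicate 2 or, for P4hb, in uninjured replicate 1.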

How the data were processed

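RNA of sorted TdTomato-positive cells was sequenced from Nextera XT libraries, per the labels. The authors deposited a single table of gene levels per library. The submitters' processing notes name FastQC, TopHat, Cuffdiff and mm9. Tool versions, the annotation, filters, scaling between libraries and the handling of multiply mapped reads are unknown here. The deposited values are taken to be FPKM, since Cuffdiff is named and the gene column is headed in its style. Of 8078 genes, 131 join several symbols, and such an entry entered a list only where all its symbols were on it. Limma 3.58.1 in R 4.3.3, with trend and robust variances and no covariate, was run on log2 of FPKM plus 1. It covered the 7987 genes averaging 1 FPKM or more, with Benjamini-Hochberg adjustment at 0.05. A run on simulated data required only that estimated differences followed the planted ones. That simulation had no outlying library and equal spread in both groups, so it does not bear on the calls reported here. Txn1 and Fth1 got no test. The p-values set the difference between the groups against the spread between pooled libraries. Alternatives are in the closing section. Genes named were set partners of Txn1 and Fth1, the 5 nearest genes to each and, by list, up to 4 passing genes, otherwise the 3 with the highest mean. A gene that this rule names among the thioredoxin clients is not reported here. Genes outside that rule (Gsr, Gpx2, Gpx3, Taldo1, Me2, Mthfd2, Rrm1, Txnl4a, Hmox2, Heph, Hfe, Phgdh, Xist and the single cell type markers) were chosen after their values were seen. Members and lists were chosen with earlier results of these data known. Sequences came from RefSeq and GENCODE M21, with 2 of 2 genes matched. Figures used Python 3.11.15 and matplotlib 3.10.9.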

Additional observations from a re-analysis of the deposited data

How the results depend on the processing

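Txn1 differed by 1.64 over 6 libraries, by 1.14 to 2.20 with 1 library left out, and by 1.45 to 1.65 under other scalings and pseudocounts, always higher in injured libraries. Fth1 differed by 0.15, by -0.11 to 0.50 with 1 library left out, and by -0.13 to 0.15 otherwise. Limma called 1 gene over all 6 libraries, and 1 to 365 with 1 library left out: 5 without injured replicate 1, 365 without injured replicate 2, 3 without uninjured replicate 1 or 2, and 2 without uninjured replicate 3. Same-numbered libraries did not deviate together (correlations of -0.0892, 0.0677 and -0.0776). With 3 libraries a group these correlations cannot exclude that the numbers pair the libraries. With a replicate block 221 genes were called, and by list 2 thioredoxin and peroxiredoxin genes, 1 thioredoxin client, 2 glutathione genes, 1 superoxide, peroxide and metallothionein gene and 1 NRF2 gene, where the fit without the block called 0. Library weights gave 134 genes, with 2 in the thioredoxin list, 1 client and 1 NRF2 gene. Quantile normalization gave 4 genes, upper-quartile scaling 3, a pseudocount of 0.1 gave 2, and limma without trend and robust steps 6. The cause of these shifts was not tested. With 1 library left out, injured replicate 2 in each case, the counts reached 3 in the thioredoxin list, 2 each among clients, glutathione, NADPH and NRF2 genes and 1 among heme genes, from 0 each. The iron and glutathione transferase lists had 0 under every setting run. Other settings were no filter, a mean of at least 5 FPKM, a pseudocount of 0.5, a threshold of 0.01 and rescaling without Mir703. Read depth is unknown, and 3 libraries a group limit the precision.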
